A study of Mus musculus with 8 samples.

Results

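The mitosis and chromosome segregation genes described here are 34 genes taken by symbol from a table of 23997 genes. They were read in 8 RNA-seq libraries of bone marrow from C57BL/6 recipients, taken after leukemia that followed a marrow transplant had killed them. In all groups the donor marrow came from mice given 5-fluorouracil (5FU) 4 days earlier, was grown with IL3, IL6 and SCF, was transduced, and was moved 48 h later into lethally irradiated recipients. One group carried AML1-ETO with Meis2 (AE+Meis2, n = 3, median latency 171 days), one AML1-ETO9a with Meis2 (AE9a+Meis2, n = 3, 102 days) and one AML1-ETO9a alone (AE9a, n = 2, 138 days). AML1-ETO is a leukemia fusion of the transcription factor RUNX1 with the corepressor RUNX1T1, AML1-ETO9a is a truncated splice form of it, and Meis2 is a homeobox transcription factor. RNA came from whole marrow, which holds leukemic cells and whatever normal cells the host still had. The labels name neither the donor nor the transduction nor the sequencing run of a library, so the spread behind each p-value is that between these libraries and may in part be technical.

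Cells that divide switch on a block of genes late in the cycle. Cyclins A and B activate the kinase CDK1, which starts mitosis with the Polo and Aurora kinases. Kinetochores built on centromeric chromatin then hold the chromosomes to the spindle while checkpoint proteins restrain the anaphase-promoting complex. Once CDC20 is released, this ubiquitin ligase destroys cyclin B, the chromosomes part, and the midzone proteins guide cytokinesis. Most of these genes are kept silent in resting cells by the DREAM complex, which binds the cell cycle genes homology region (CHR), and many are switched on through nearby CCAAT boxes bound by NF-Y. Messenger RNA of these genes is therefore widely used as a sign of cycling cells, in leukemic marrow too, where normal erythroblasts and early myeloid cells also divide.

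Most of the promoters of the group that could be read held both of these short motifs. RefSeq promoter sequences (build GRCm38.p6, 250 bases before to 50 bases after the start) were matched for 30 of the 34 genes; Ccna2, Aurkb, Tpx2 and Kif20a were not matched. The CHR core TTTGAA stood on either strand in 23 of the 30 promoters (76.7%), against 20.2% of the 27025 genes with a promoter of that length. CCAAT stood on either strand in 23 of 30 (76.7%) against 41.1%, and both motifs in 20 of 30 (66.7%) against 7.97%. The letters allow a CHR core and a CCAAT box to share at most 1 base. A match is a description of the letters, not a site of binding. The promoters of the 4 genes with the largest mean FPKM among those that hold both motifs follow, from 250 bases before to 30 bases after the start, with both motifs in capitals on either strand (TTCAAA and ATTGG are the reverse complements). They show how close the motifs lie to each other and to the start. Mki67 is chr7:135716350-135716629 (minus strand), Top2a chr11:99024160-99024439 (minus), Cenpa chr5:30666636-30666915 (plus) and Ccnb2 chr9:70421525-70421804 (minus).
Mki67: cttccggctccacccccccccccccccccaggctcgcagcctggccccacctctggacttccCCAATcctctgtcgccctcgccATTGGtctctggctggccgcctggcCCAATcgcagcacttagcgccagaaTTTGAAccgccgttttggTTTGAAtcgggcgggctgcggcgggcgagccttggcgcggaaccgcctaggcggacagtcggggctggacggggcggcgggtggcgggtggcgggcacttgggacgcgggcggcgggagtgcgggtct
Top2a: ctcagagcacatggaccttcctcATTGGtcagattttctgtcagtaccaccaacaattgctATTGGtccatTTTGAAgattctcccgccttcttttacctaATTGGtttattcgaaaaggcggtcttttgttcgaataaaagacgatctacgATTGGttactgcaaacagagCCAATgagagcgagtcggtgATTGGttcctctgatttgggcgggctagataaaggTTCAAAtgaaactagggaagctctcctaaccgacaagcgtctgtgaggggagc
Cenpa: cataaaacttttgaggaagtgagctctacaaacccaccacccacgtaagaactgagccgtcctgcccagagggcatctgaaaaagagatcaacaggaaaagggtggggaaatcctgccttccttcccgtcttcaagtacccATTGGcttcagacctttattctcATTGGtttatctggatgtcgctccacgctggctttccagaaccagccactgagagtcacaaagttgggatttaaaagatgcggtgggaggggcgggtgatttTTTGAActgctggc
Ccnb2: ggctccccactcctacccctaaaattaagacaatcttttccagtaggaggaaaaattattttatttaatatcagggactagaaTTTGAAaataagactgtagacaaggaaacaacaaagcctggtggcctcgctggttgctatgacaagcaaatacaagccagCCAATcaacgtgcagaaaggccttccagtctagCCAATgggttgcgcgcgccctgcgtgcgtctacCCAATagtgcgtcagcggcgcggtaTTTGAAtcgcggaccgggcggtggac

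Position gave a sharper contrast than presence. A TTTGAA began within the first 50 transcribed bases in 15 of 30 promoters (50%), against 2.18% of all genes, and in the 50 bases before the start in 6 of 30 (20.0%) against 2.86%. CCAAT lay mainly upstream, with a match in the 50 bases before the start in 16 of 30 (53.3%) against 9.44% and in the next 50 bases in 14 of 30 (46.7%) against 13%. Cenpa and Ccnb2 follow this layout, with a TTTGAA that begins at position 16 and 4 after the first transcribed base (position 0) and CCAAT matches upstream. Ccnb2 also holds a TTTGAA far upstream, at -167. In Mki67 both TTTGAA matches lie upstream, at positions -116 and -98. Top2a carries 6 CCAAT matches, a TTTGAA at -179 and the reverse complement TTCAAA at -23. Of the other cell cycle lists described below, other spindle and cytokinesis genes held TTTGAA in 68.2% of matched promoters, condensin and cohesin genes in 53.3% and other centromere and kinetochore genes in 38.5%. Mitotic entry regulators (25.0%), G1/S and replication genes (16.0%), subunits of the anaphase-promoting complex (14.3%) and cell cycle brakes (14.3%) lay nearer the share of all genes. CCAAT set the group apart less clearly, and not from every list. It stood in 83.3% of matched promoters of mitotic entry regulators and 69.2% of other centromere and kinetochore genes. Cell cycle brakes held it in 64.3%, G1/S and replication genes in 64% and other spindle and cytokinesis genes in 63.6%. It was less common in G1 cyclins and kinases (50%), condensin and cohesin genes (46.7%) and subunits of the anaphase-promoting complex (42.9%).

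**Figure D1:**
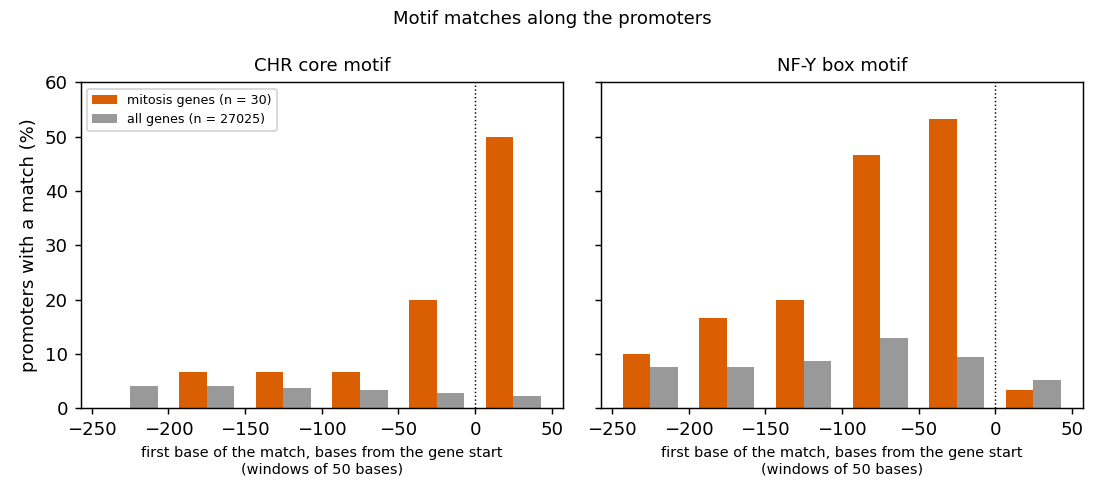
Share of promoters (%, vertical axis) with a match that begins in each window of 50 bases (horizontal axis, bases from the gene start at 0), for the CHR core (left) and the NF-Y box (right); orange bars are the 30 matched mitosis genes and grey bars all 27025 genes. The CHR core reached 50% of the mitosis genes just after the start, and the NF-Y box 53.3% and 46.7% in both windows just before it.

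The deposited values are FPKM, fragment numbers divided by transcript length and by how many fragments mapped in all, so levels of different genes can be compared. All 34 genes were expressed in every library and all 34 entered the test, which took genes with at least 1 FPKM in at least 2 libraries (12565 genes). Mean levels over the 8 libraries ran from 8.51 FPKM for Cenpf to 73.8 FPKM for Mki67. The largest value of a gene was between 1.62 times (Cdc20) and 4.64 times (Cenpf) its smallest. Some facts of the libraries bear on every value below. A rough measure of relative depth from low values put 7 of them between 12.2% and 66% of AE9a+Meis2 replicate 2, and small RNA entries held between 8.68% and 38.0% of the summed FPKM. Genes of families silent in marrow were above 0 for 84.2% of 1536 such genes in replicate 3 of AE9a+Meis2 and for 72.1% in replicate 1 of AE9a, against 3.32% to 6.58% in the other 6 libraries. The library labelled AE+Meis2 replicate 1 went against its label, since its Runx1t1 was 21.6 FPKM, against 223 and 218 FPKM in the other 2 AE+Meis2 libraries and 10.3 to 26.8 FPKM in the 5 libraries with AML1-ETO9a. Its Meis2 was 13.1 FPKM, against 38.2 and 81.5 FPKM in the other 2 AE+Meis2 libraries, 604 to 1277 FPKM in AE9a+Meis2 and 6.99 and 13.2 FPKM in AE9a. On both transgenes it was thus at the level of AE9a alone. The median difference of each comparison is given with and without these 3 libraries, and single genes where a library moved them most. Markers of blood cells were present in every library: the pan-leukocyte gene Ptprc was between 39.4 and 298 FPKM and the myeloid factor Spi1 between 28.3 and 287 FPKM.

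**Figure D2:**
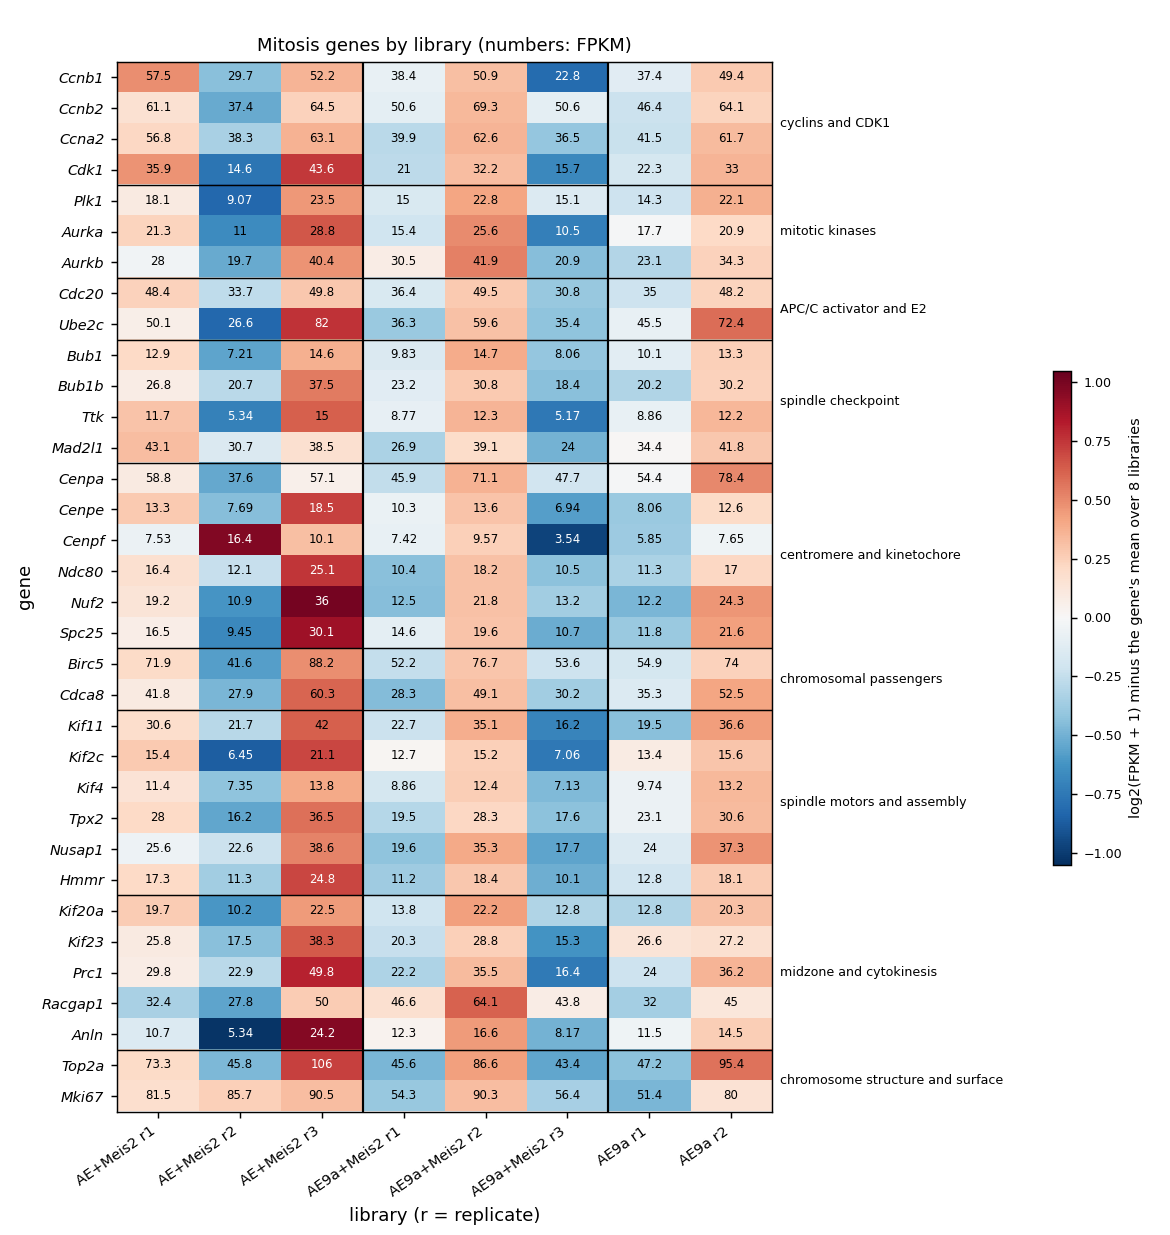
FPKM (printed numbers) of the 34 mitosis genes (rows, grouped by role) in the 8 libraries (columns); colour gives log2(FPKM + 1) minus the mean of that gene over the 8 libraries. AE+Meis2 replicate 3, AE9a+Meis2 replicate 2 and AE9a replicate 2 are red in nearly every row, and Cenpf in AE+Meis2 replicate 2 stands out at 16.4 FPKM.

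The cyclins and their kinase set the pattern that most of the group followed. Ccnb1, cyclin B1, was 57.5, 29.7 and 52.2 FPKM in AE+Meis2, 38.4, 50.9 and 22.8 FPKM in AE9a+Meis2, and 37.4 and 49.4 FPKM in AE9a. Cdk1, the kinase that cyclins A and B activate, was 35.9, 14.6 and 43.6 FPKM in AE+Meis2, 21.0, 32.2 and 15.7 FPKM in AE9a+Meis2, and 22.3 and 33.0 FPKM in AE9a. Both were low in AE+Meis2 replicate 2 and AE9a+Meis2 replicate 3, and in each group 1 or 2 libraries stood well above another, so that the groups overlapped. Ccnb2, cyclin B2, spanned 37.4 to 69.3 FPKM and Ccna2, cyclin A2, 36.5 to 63.1 FPKM, with the highest values in AE9a+Meis2 replicate 2 and AE+Meis2 replicate 3, respectively. Ccnb1 transcripts are 99.2% identical to the pseudogene Ccnb1-ps over the aligned bases, and 12.5% of the exon bases of Ccna2 overlap Exosc9 on the other strand, so reads could be shared between these pairs: the library kit does not mark strand.

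The mitotic kinases, and Cdc20 and Ube2c, which act with the anaphase-promoting complex, showed similar high and low libraries. Plk1, the Polo kinase of centrosome maturation and mitotic entry, was 18.1, 9.07 and 23.5 FPKM in AE+Meis2, 15.0, 22.8 and 15.1 FPKM in AE9a+Meis2, and 14.3 and 22.1 FPKM in AE9a. Aurka, the Aurora kinase of spindle poles, spanned 10.5 to 28.8 FPKM, and Aurkb, the Aurora kinase of the chromosomal passenger complex, 19.7 to 41.9 FPKM. Ube2c, the ubiquitin-conjugating enzyme that serves the complex, was 50.1, 26.6 and 82.0 FPKM in AE+Meis2, 36.3, 59.6 and 35.4 FPKM in AE9a+Meis2, and 45.5 and 72.4 FPKM in AE9a. Ube2c was highest in AE+Meis2 replicate 3 and AE9a replicate 2 and lowest in AE+Meis2 replicate 2, so the highest and the lowest value came from the same group. Cdc20, the activator of the complex, had the smallest relative range, 30.8 to 49.8 FPKM. Exons of Ube2c overlap Tnnc2 on the other strand for 22.8% of their bases, and Tnnc2 was between 0.226 and 3.46 FPKM.

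Checkpoint genes had the same pattern. Mad2l1, whose protein holds CDC20 inactive until every kinetochore is attached, was 43.1, 30.7 and 38.5 FPKM in AE+Meis2, 26.9, 39.1 and 24.0 FPKM in AE9a+Meis2, and 34.4 and 41.8 FPKM in AE9a. It was the member with the smallest spread within groups (SD 0.29 on the log2 scale), and AE9a+Meis2 replicate 2 (39.1 FPKM) kept that group overlapping with AE9a. Bub1, a kinase that recruits checkpoint proteins to kinetochores, spanned 7.21 to 14.7 FPKM, its relative Bub1b 18.4 to 37.5 FPKM, and Ttk, the kinase that starts checkpoint signalling, 5.17 to 15.0 FPKM. All 4 were lowest in AE+Meis2 replicate 2 or AE9a+Meis2 replicate 3.

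The centromere and kinetochore genes held the clearest exception. Cenpf (chromosome 1, 189640606 to 189688107), a large coiled-coil protein that joins the outer kinetochore in late G2, was 7.53, 16.4 and 10.1 FPKM in AE+Meis2, 7.42, 9.57 and 3.54 FPKM in AE9a+Meis2, and 5.85 and 7.65 FPKM in AE9a. AE+Meis2 replicate 2, the library in which 32 of the 34 genes were lowest within their group, had the highest Cenpf of all 8 libraries, 1.47 log2 units above that library's median for the group. Cenpa, the histone H3 variant that marks centromeres, was 58.8, 37.6 and 57.1 FPKM in AE+Meis2, 45.9, 71.1 and 47.7 FPKM in AE9a+Meis2, and 54.4 and 78.4 FPKM in AE9a. Its highest value came from AE9a replicate 2, and in AE+Meis2 replicate 3, where the other genes were high, it sat near its own mean. Nuf2, a subunit of the NDC80 complex that binds microtubules, was 19.2, 10.9 and 36.0 FPKM in AE+Meis2, 12.5, 21.8 and 13.2 FPKM in AE9a+Meis2, and 12.2 and 24.3 FPKM in AE9a. Nuf2 showed the largest excess of AE+Meis2 replicate 3 over the mean of a gene, 1.0 log2 units. Ndc80 and Spc25, subunits of the same complex, spanned 10.4 to 25.1 FPKM and 9.45 to 30.1 FPKM, and the kinetochore motor Cenpe 6.94 to 18.5 FPKM.

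Passenger and spindle genes showed the same high and low libraries. Birc5 (survivin) and Cdca8 (borealin), which place Aurora B on chromosomes, spanned 41.6 to 88.2 FPKM and 27.9 to 60.3 FPKM. Among the spindle genes, Kif11, the motor that separates the poles, spanned 16.2 to 42.0 FPKM, Kif2c, a motor that shortens microtubules, 6.45 to 21.1 FPKM, and the chromosome motor Kif4 7.13 to 13.8 FPKM. Tpx2, the activator of Aurora A, spanned 16.2 to 36.5 FPKM, and the microtubule-binding proteins Nusap1 and Hmmr 17.7 to 38.6 FPKM and 10.1 to 24.8 FPKM. AE+Meis2 replicate 3 held the highest value in all 8 of these genes. Kif4 shares 15.1% of its exon bases with Pdzd11 and Nusap1 4.24% with Oip5, each on the other strand.

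Of the midzone and cytokinesis genes, Racgap1 departed from the rest. Racgap1 (chromosome 15, 99620496 to 99651656), the GTPase-activating subunit of centralspindlin, was 32.4, 27.8 and 49.999 FPKM in AE+Meis2, 46.6, 64.1 and 43.8 FPKM in AE9a+Meis2, and 31.98 and 45.0 FPKM in AE9a. All 3 AE9a+Meis2 libraries were at 43.8 FPKM or more, above 3 of the other 5 libraries, but AE+Meis2 replicate 3 and AE9a replicate 2 reached into their range. Anln, anillin of the contractile ring, was 10.7, 5.34 and 24.2 FPKM in AE+Meis2, 12.3, 16.6 and 8.17 FPKM in AE9a+Meis2, and 11.5 and 14.5 FPKM in AE9a. Anln had the largest spread within groups (SD 0.70 on the log2 scale), with both its extremes in AE+Meis2. Prc1, the microtubule bundler of the midzone, spanned 16.4 to 49.8 FPKM, and the motors Kif23, the partner of Racgap1, and Kif20a 15.3 to 38.3 FPKM and 10.2 to 22.5 FPKM. Kif20a shares 29.3% of its exon bases with Cdc23 on the other strand, itself at 13.6 to 21.6 FPKM, and Racgap1 is 98.2% identical to the pseudogene AC148020.1 over 488 aligned bases.

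The chromosome structure and surface genes were the most abundant of the 34. Top2a, the topoisomerase that untangles sister chromatids, was 73.3, 45.8 and 106 FPKM in AE+Meis2, 45.6, 86.6 and 43.4 FPKM in AE9a+Meis2, and 47.2 and 95.4 FPKM in AE9a. Mki67, which coats mitotic chromosomes and is the antigen of the Ki-67 proliferation stain, was 81.5, 85.7 and 90.5 FPKM in AE+Meis2, 54.3, 90.3 and 56.4 FPKM in AE9a+Meis2, and 51.4 and 80.0 FPKM in AE9a. Mki67 was even across AE+Meis2, and every one of these 3 libraries lay above both AE9a libraries, though AE9a replicate 2 (80.0 FPKM) was close to the lowest of them. In AE9a+Meis2, replicate 2 was far above the other 2 libraries.

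Within a library, the 34 genes moved as a block. The median over the 34 genes of log2(FPKM + 1) minus each gene's mean was 0.17, -0.50 and 0.56 in AE+Meis2, -0.22, 0.32 and -0.45 in AE9a+Meis2, and -0.21 and 0.29 in AE9a. The median FPKM of the group ran from 16.3 in AE9a+Meis2 replicate 3 to 38.4 in AE+Meis2 replicate 3. Every one of the 34 genes lay above its own mean in replicate 3 of AE+Meis2 and in replicate 2 of AE9a+Meis2, as did 33 in AE9a replicate 2, while 32 lay below it in AE+Meis2 replicate 2 and 33 in AE9a+Meis2 replicate 3. In bulk marrow, fewer dividing cells and less of these RNAs per dividing cell cannot be told apart.

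**Figure D3:**
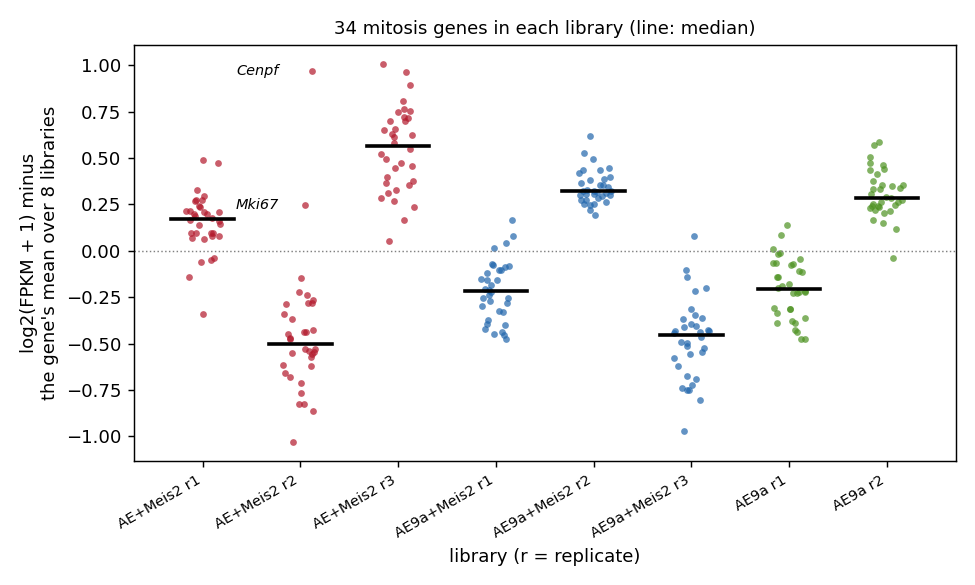
Each point is 1 of the 34 mitosis genes in 1 library (horizontal axis); the vertical axis is log2(FPKM + 1) minus the mean of that gene over the 8 libraries, the black line the median, and colour the group. Medians run from -0.50 in AE+Meis2 replicate 2 to 0.56 in AE+Meis2 replicate 3, and Cenpf and Mki67 lie above the rest in AE+Meis2 replicate 2.

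The order of libraries within a group was nearly the same for each gene. AE9a+Meis2 replicate 2 was the highest of its group for 34 of 34 genes, against 28.2% of all genes tested, and AE9a replicate 2 lay above AE9a replicate 1 for 34 of 34, against 58.9%. AE+Meis2 replicate 3 was the highest of its group for 30 of 34 genes (38.5% of all genes) and replicate 2 the lowest for 32 of 34 (39.9%). AE9a+Meis2 replicate 3 was the lowest of its group for 26 genes and replicate 1 for the other 8. Once the library median was taken away, the median SD of a gene over the 8 libraries went from 0.42 to 0.17, and 227 of 272 values (83.5%) lay within 0.25 log2 units of their library's median. The values farthest from it were Cenpf, Mki67 (0.75 above) and Anln (0.53 below) in AE+Meis2 replicate 2, Racgap1 in AE9a+Meis2 replicate 3 (0.54 above) and Cenpa in AE+Meis2 replicate 3 (0.51 below).

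The spread within groups was large beside the differences between them. The median SD within groups was 0.47 on the log2 scale over the 34 genes, against 0.38 over all 12565 genes tested and 0.33 over the 6558 tested genes in the same range of mean level. Of the variance of a gene over the 8 libraries, a median of 10.2% lay between the 3 groups, against 23.8% over all genes tested and 22.9% in the same range of level. The share ran from 0.55% for Kif20a to 38.9% for Racgap1, with Cenpf (36.4%), Mki67 (36.1%) and Mad2l1 (34.6%) next, and was under 10% for 17 of the 34. With 3 groups and 8 libraries, such a share is above 0 even where the groups do not differ. The shares alone, of these genes or of all genes, therefore do not show a group difference.

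The library medians depended on the scaling for 1 library above all. AE+Meis2 replicate 3 was at 0.56 as deposited, 0.35 after quantile scaling and 0.48 after median-of-ratios scaling. It was at -0.04 after rescaling without the small RNA entries, which also set every library to the same sum. This library had the largest summed FPKM as deposited, with 20.7% of it in small RNA entries. The part of each step in the shift was not tested. AE9a replicate 1 went from -0.21 to -0.02, -0.12 and 0.05 under the same scalings. The other 6 libraries kept the sign of their median under these 3 scalings.

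The first comparison asked what Meis2 adds to AML1-ETO9a, as AE9a+Meis2 against AE9a. In it 30 of the 34 genes had a lower and 4 a higher mean log2(FPKM + 1) in AE9a+Meis2, with a median difference of -0.17 (all genes tested -0.00), and none passed the test. By limma with Benjamini-Hochberg adjustment over all genes, 0 of 34 were called, against 6 of 12565 genes (0.0478%), and 0 of 34 had an unadjusted p under 0.05, against 385 genes (3.06%). Differences ran from -0.43 ± 0.48 (SE) for Ube2c to 0.41 ± 0.31 for Racgap1. Mad2l1 had the smallest p (difference -0.36 ± 0.27, unadjusted p = 0.22, limma adjusted p = 1), and 2 genes differed by more than 1 SE, Mad2l1 and Racgap1. Single libraries moved these values: without AE9a replicate 1 and without AE9a replicate 2, Racgap1 was 0.17 and 0.65, Mad2l1 -0.49 and -0.22, and Ube2c -0.76 and -0.10. Without AE9a+Meis2 replicate 2 they were 0.25, -0.56 and -0.66, and without AE9a+Meis2 replicate 3 0.51, -0.22 and -0.30. In no gene did the libraries of both groups lie apart, whereas 13.1% of all genes lay wholly higher and 10.7% wholly lower in AE9a+Meis2.

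The direction of that median rested on single libraries. Without AE9a replicate 2 it was 0.08 with 19 of 34 genes higher, and without AE9a+Meis2 replicate 3 it was -0.00 with 16 higher. Without AE9a replicate 1 it was -0.45, without AE9a+Meis2 replicate 2 -0.43, and -0.23 when AE9a+Meis2 replicate 3 and AE9a replicate 1 were both left out. The 95% intervals lay within 1 log2 unit (2-fold) of 0 for 10 of the 34 genes and reached from -1.56 to 1.2, so that for the other 24 a 2-fold difference lay inside the interval.

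The second comparison set the fusion forms side by side in the groups labelled with Meis2, as AE+Meis2 against AE9a+Meis2. Meis2 RNA was not matched between them, at 13.1, 38.2 and 81.5 FPKM against 621, 604 and 1277 FPKM. Fusion form and Meis2 level therefore cannot be told apart in this comparison. Here 28 of the 34 genes had a higher and 6 a lower mean in AE+Meis2, with a median difference of 0.23 (all genes tested 0.04), and again none passed the test. limma called 0 of 34, against 5 of 12565 genes (0.0398%), and 0 of 34 had an unadjusted p under 0.05, against 898 genes (7.15%). The largest differences were 0.67 ± 0.39 for Cenpf (limma adjusted p = 0.76), 0.45 ± 0.38 for Prc1 and 0.41 ± 0.34 for Ndc80. Racgap1 differed the other way, by -0.50 ± 0.28, with the smallest p (unadjusted p = 0.115, limma adjusted p = 0.757), and Mki67 by 0.39 ± 0.26. No gene had groups that lay apart, against 7% of all genes wholly higher and 6.49% wholly lower in AE+Meis2. Cenpf rested on 1 library at each end: its difference was 0.39 without AE+Meis2 replicate 2 and 0.32 without AE9a+Meis2 replicate 3. Prc1 and Ndc80 were 0.14 and 0.15 without AE+Meis2 replicate 3, 0.20 and 0.29 without AE9a+Meis2 replicate 3, 0.69 and 0.65 without AE+Meis2 replicate 2, and 0.73 and 0.66 without AE9a+Meis2 replicate 2. The difference of Racgap1 kept its sign in all 19 other settings, from -0.76 to -0.33.

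The median of this comparison turned with 1 library and with 1 scaling. Without AE+Meis2 replicate 3 it was -0.01 with 15 of 34 genes higher, without AE9a+Meis2 replicate 3 it was 0.04 with 22 higher, and without AE+Meis2 replicate 2 or AE9a+Meis2 replicate 2 it was 0.49 or 0.46. Without the library labelled AE+Meis2 replicate 1, it was 0.17 with 26 higher. Rescaling without small RNA entries moved the median of all genes by -0.13, -0.25 and -0.37 in the 3 comparisons, in the order given here. In this one the members' median became -0.02 beside -0.20 for all genes, in the first -0.29 beside -0.13. The 95% intervals lay within 1 log2 unit of 0 for 12 of 34 genes and reached from -1.24 to 1.60.

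The third comparison, AE+Meis2 against AE9a, shares its libraries with the other 2 and differs in both the fusion form and Meis2. The genes were divided, 18 higher and 16 lower in AE+Meis2, with a median difference of 0.00 (all genes tested 0.06). limma called 0 of 34, against 4 of 12565 genes (0.0318%), and 0 of 34 had an unadjusted p under 0.05, against 752 genes (5.98%). Differences ran from -0.37 ± 0.31 for Cenpa to 0.62 ± 0.44 for Cenpf, which was 0.34 without AE+Meis2 replicate 2. Cenpa was -0.11 without AE9a replicate 2, -0.17 without AE+Meis2 replicate 2 and -0.63 without AE9a replicate 1. Mki67 had the smallest p (difference 0.41 ± 0.29, unadjusted p = 0.193, limma adjusted p = 0.95) and was the 1 gene of 34 whose groups lay apart, higher in AE+Meis2, against 9.96% of all genes wholly higher and 8.66% wholly lower. Its difference was 0.10 without AE9a replicate 1, 0.73 without AE9a replicate 2, and 0.17 and 0.04 after quantile scaling and rescaling without small RNA, the last with the shift of all genes given above.

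The median changed sign with single libraries. It was -0.06 without AE+Meis2 replicate 1, -0.23 without AE+Meis2 replicate 3 and -0.25 without AE9a replicate 1, and 0.31 and 0.24 without AE+Meis2 replicate 2 and AE9a replicate 2. Quantile, median-of-ratios and small RNA scaling gave -0.15, -0.07 and -0.37, beside -0.01, -0.01 and -0.31 for all genes. Rescaling without small RNA thus moved members and all genes alike. The 95% intervals lay within 1 log2 unit of 0 for 15 of 34 genes and reached from -1.49 to 1.65.

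**Figure D4:**
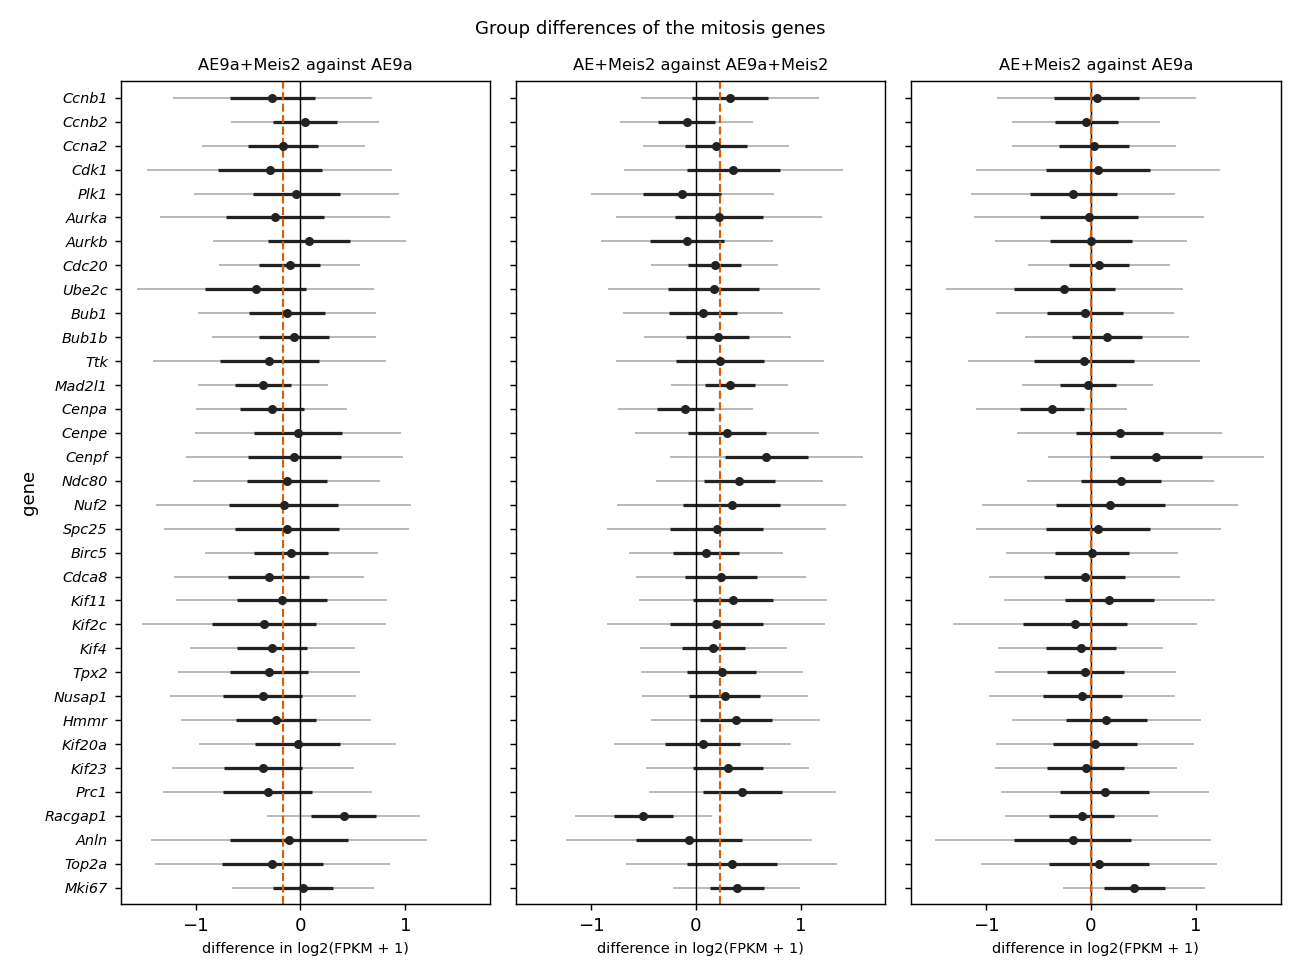
Differences in log2(FPKM + 1) of the 34 mitosis genes (rows) in the 3 comparisons; points are limma differences, thick bars 1 standard error, thin grey bars 95% intervals and the dashed orange line the median of the 34. Every grey bar crosses 0; medians are -0.17, 0.23 and 0.00.

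Most roles had the sign of the whole group. All 6 genes of spindle motors and assembly had a lower mean in AE9a+Meis2 than in AE9a (median -0.29), and a higher one once AE+Meis2 was set against AE9a+Meis2 (0.26), and so were all 4 checkpoint genes (-0.21 and 0.22), with no call in either. The same held for Cdc20 and Ube2c, which act with the anaphase-promoting complex (-0.27 and 0.17), and for both chromosomal passengers (-0.20 and 0.17). All 6 centromere and kinetochore genes were lower in the first comparison (-0.13). With 30 of 34 genes lower and 28 of 34 higher in all, such uniform signs do not set these roles apart. In these 2 comparisons AE9a+Meis2 is shared, so the opposite signs are not independent. The 3 mitotic kinases had medians of -0.04 and -0.08, and the 5 midzone and cytokinesis genes ran from -0.36 to 0.41 and from -0.50 to 0.45.

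Other cell cycle genes were not called either. Of 168 genes in 8 related lists, 167 were tested and 0 were called in any comparison. In AE9a+Meis2 against AE9a, 24 of 25 other spindle and cytokinesis genes were lower (median -0.17), as were 24 of 33 other centromere and kinetochore genes (-0.16), 14 of 18 mitotic entry regulators (-0.15), 14 of 22 condensin and cohesin genes (-0.05), 11 of 15 subunits of the anaphase-promoting complex (-0.09), 23 of 31 G1/S and replication genes (-0.08) and 4 of 6 G1 cyclins and kinases (-0.10). In AE+Meis2 against AE9a+Meis2 the counts of genes that were higher were 20 of 25 (median 0.17), 26 of 33 (0.22), 10 of 18 (0.03), 18 of 22 (0.16), 11 of 15 (0.14), 20 of 31 (0.08) and 5 of 6 (0.09) in the same order. The smallest p among the mitotic ones belonged to Bora, the activator of Aurora A, which was 16.8, 23.0 and 17.6 FPKM in AE+Meis2, 12.3, 14.3 and 7.73 FPKM in AE9a+Meis2, and 14.1 and 18.5 FPKM in AE9a (AE+Meis2 against AE9a+Meis2 0.72 ± 0.27, limma adjusted p = 0.669). Oip5, which helps load CENP-A and was 10.1, 10.1 and 7.95 FPKM in AE+Meis2, 4.60, 7.99 and 3.91 FPKM in AE9a+Meis2, and 8.68 and 9.66 FPKM in AE9a, differed by 0.72 ± 0.27 (adjusted p = 0.672). For Bora every AE+Meis2 library lay above every AE9a+Meis2 library, as for 7% of all genes tested. For Oip5 AE+Meis2 replicate 3 lay just below AE9a+Meis2 replicate 2. Without AE9a+Meis2 replicate 3 the differences were 0.49 and 0.54, and without AE+Meis2 replicate 1 0.80 and 0.67.

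Genes at the entry to the cycle did not all follow the mitotic block. E2f2, a transcription factor of the G1/S switch, was 18.5, 8.41 and 18.4 FPKM in AE+Meis2, 22.9, 38.5 and 40.6 FPKM in AE9a+Meis2, and 11.6 and 17.9 FPKM in AE9a. It was higher in every AE9a+Meis2 library than in any other library but did not pass (1.14 ± 0.42 against AE9a, limma adjusted p = 1; AE+Meis2 against AE9a+Meis2 -1.15 ± 0.37, adjusted p = 0.617). The cell cycle brakes, 17 of 18 tested, had 13 higher and 4 lower in AE9a+Meis2 against AE9a (median 0.10), 12 and 5 when AE+Meis2 was set against AE9a+Meis2 (0.23), and 13 and 4 when it was set against AE9a (0.42), with 0 calls. Cdkn2a, which encodes the inhibitor p16 and the p53 activator p19Arf, was 2.91, 1.26 and 0.363 FPKM in AE+Meis2, 5.32, 3.55 and 5.13 FPKM in AE9a+Meis2, and 5.48 and 3.59 FPKM in AE9a (AE+Meis2 against AE9a+Meis2 -1.29 ± 0.40, limma adjusted p = 0.601). Cdkn1b, the CDK inhibitor p27, was 52.3, 66.2 and 59.3 FPKM in AE+Meis2, 46.7, 41.1 and 38.6 FPKM in AE9a+Meis2, and 44.8 and 47.8 FPKM in AE9a (0.48 ± 0.16, adjusted p = 0.626). Both separated AE+Meis2 from AE9a+Meis2 without overlap, Cdkn2a lower and Cdkn1b higher in AE+Meis2. In that comparison 6.49% of all genes tested lay wholly lower in AE+Meis2, as E2f2 also did, and 7% wholly higher. Against AE9a, 13.1% of all genes lay wholly higher in AE9a+Meis2, as did E2f2. E2f2, Cdkn2a and Cdkn1b were named for being among the 2 smallest p of their lists, which favours genes whose groups lie apart. Without AE+Meis2 replicate 1 the differences of E2f2, Cdkn2a and Cdkn1b were -1.33, -1.67 and 0.56, and without AE9a+Meis2 replicate 3 -1.01, -1.23 and 0.42. Against AE9a, E2f2 was 0.85 without AE9a replicate 1. Gadd45a, a p53 target that slows entry into mitosis, was 39.5, 35.4 and 70.3 FPKM in AE+Meis2, 16.5, 17.3 and 27.6 FPKM in AE9a+Meis2, and 5.46 and 25.6 FPKM in AE9a (AE+Meis2 against AE9a 1.85 ± 0.60, adjusted p = 0.697). Without AE9a replicate 1 that difference was 0.83, and without AE9a replicate 2 2.87.

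**Figure D5:**
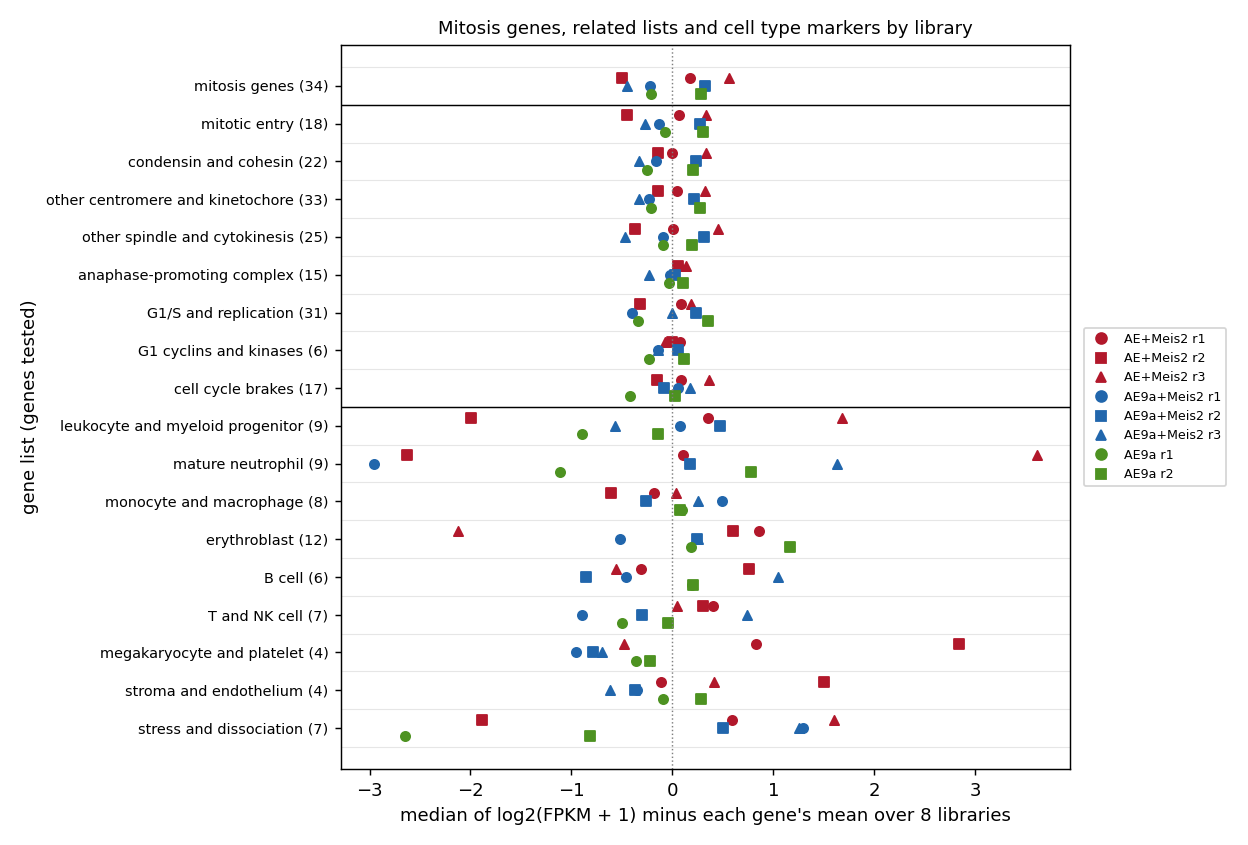
Median over each list (rows, number of genes tested in brackets) of log2(FPKM + 1) minus each gene's mean over the 8 libraries (horizontal axis); colour is the group and shape the replicate number. The mitosis genes span -0.50 to 0.56, the related cell cycle lists less, and the mature neutrophil markers -2.95 to 3.61.

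Most related mitotic lists had their high and low values in the same libraries as the mitosis genes, with exceptions in AE+Meis2 replicate 2. Medians of other spindle and cytokinesis genes ran from -0.47 in AE9a+Meis2 replicate 3 to 0.45 in AE+Meis2 replicate 3, and those of mitotic entry regulators from -0.45 in AE+Meis2 replicate 2 to 0.34 in AE+Meis2 replicate 3. Subunits of the anaphase-promoting complex spanned less, from -0.23 to 0.13, and were at 0.05 in AE+Meis2 replicate 2, where the 34 genes were at -0.50. In that library the condensin and cohesin genes and the other centromere and kinetochore genes were each at -0.15. G1/S and replication genes parted from the mitotic ones in AE9a+Meis2 replicate 3, at -0.00 beside -0.45 for the 34 genes.

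Markers of several other cell types differed far more between the same libraries. The 9 mature neutrophil markers measured summed to 1813 to 190868 FPKM in AE+Meis2, 1876 to 38800 in AE9a+Meis2 and 5187 to 20921 in AE9a, with Ltf, the granule protein lactoferrin, from 10.1 to 2542 FPKM. The 12 erythroblast markers summed to 527 to 5123 FPKM, 1255 to 3368 and 2015 to 3298 FPKM in the same order. AE+Meis2 replicate 3, the library with the highest mitosis genes, had the most neutrophil and the least erythroblast RNA. The 9 leukocyte and myeloid progenitor markers summed to 618 to 6961 FPKM, 928 to 3836 and 696 to 1520, lowest in AE+Meis2 replicate 2. The median of log2(FPKM + 1) minus each gene's mean was lowest there too, at -1.99. Kit of the same list went the other way, at 224 FPKM there against 16.3 to 121 FPKM elsewhere. The 5 megakaryocyte and platelet markers reached 350 FPKM in AE+Meis2 replicate 2, against 11.7 to 94.5 elsewhere. Itga2b (255 FPKM), Pf4 (82.4 FPKM) and Gp9 (11.1 FPKM) were highest in that library. Ppbp (1.41 FPKM) was below both AE9a libraries (2.44 and 2.13 FPKM), and Gp1bb was at 0.0747 FPKM. The 8 monocyte and macrophage markers summed to 373 to 624 FPKM, 703 to 1289 and 469 to 552. B cell markers (7), T and NK cell markers (7) and stroma and endothelium markers (7) summed to at most 112, 120 and 46.2 FPKM. Stress and dissociation genes (9) summed to 125 to 2401 FPKM, 958 to 1617 and 92.0 to 306. No marker of these lists found in the table was at 0 in any library except the platelet gene Gp1bb in AE9a replicate 1. The part of these cells and of depth in the library pattern of the mitosis genes was not tested.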

How the data were processed

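The authors deposited 1 table of FPKM for 23997 genes. The submitters' processing notes name TopHat, Cufflinks, Cuffdiff and mm10; versions, settings and annotation were not given in the sources used here. Per the labels' protocols, RNA was extracted with TRIzol and libraries were made with the TruSeq RNA kit version 2, which does not mark strand. FPKM depend on all other RNA of a library, so small RNA entries (1243 genes) move the scale, and absolute depth is unknown. Rescaling without small RNA entries also set the remaining FPKM of every library to the same sum.

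The sample titles gave groups and replicate numbers. The scale is log2(FPKM + 1), which understates changes of low genes. For 12565 genes with at least 1 FPKM in 2 or more libraries, group means were fitted to all 8 libraries with limma 3.58.1 (R 4.3.3; empirical Bayes with an intensity trend; degrees of freedom 2.285 prior, 5 residual). The Benjamini-Hochberg adjustment covered all of them, with a threshold of 0.05. The fit was also run on simulated data in which each gene varied on its own. That run does not bear on genes that move as a block within a library. A ± is the standard error of a log2 difference. Motif counts and plots used Python 3.11.15 (NumPy 2.4.6, pandas 2.3.3, matplotlib 3.10.9).

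The 34 genes and all gene lists were chosen with earlier results of these data known. All 34 are named. From each related list at most 2 genes with the smallest p in a comparison are named, and from each marker list the first 2 tested. Gp1bb, Gp9, Ppbp and Kit were named after their values were seen, and partner genes are named for their overlap with a member. Exon overlaps and pseudogenes come from GENCODE vM21 (GRCm38), promoters and gene positions from RefSeq. Alternatives were other pseudocounts, filters, scalings and fits, and the omission of libraries; for related genes named with values they were added after seeing the data.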

Additional observations from a re-analysis of the deposited data

How the results depend on the processing

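No member was called in any comparison under any of the 19 other settings, 8 of which leave out 1 library (smallest limma adjusted p 0.335). Of 1938 member differences under them, 216 changed sign. In AE9a+Meis2 against AE9a the genes called over the whole table went from 6 to 2 with the replicate block and 3 without AE9a+Meis2 replicate 3 and AE9a replicate 1 together. For AE+Meis2 against AE9a+Meis2 they went from 5 to 14 after rescaling without small RNA. In AE+Meis2 against AE9a they went from 4 to 1 with no filter, 1 after rescaling, 0 with the replicate block and 2 with only the libraries of both groups. Leaving out 1 library gave 2 to 9, 6 to 23 and 1 to 10 genes in these comparisons.

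The members' median was -0.017 after rescaling in AE+Meis2 against AE9a+Meis2. In AE+Meis2 against AE9a it was -0.15 after quantile scaling, -0.071 after median-of-ratios scaling, -0.37 after rescaling, -0.011 with the replicate block and -0.25 without AE9a+Meis2 replicate 3 and AE9a replicate 1. Leaving out 1 library gave -0.45 to 0.082, -0.0076 to 0.49 and -0.25 to 0.31. The cause was not tested. Correlations between the deviations of same-numbered libraries ran from -0.03 to 0.13, beside -0.10 to 0.08 for the other pairs. With 2 or 3 libraries a group, these cannot settle whether the numbers pair the libraries. The replicate block is given only here. With it 0 of 34 members were called in each comparison. Precision is limited by 2 or 3 libraries a group and by the unknown absolute depth.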
